A study of Sus scrofa with 12 samples.

Results

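The genes described are 8 regulators of the unfolded protein response and the integrated stress response, out of 31781 Ensembl pig gene identifiers in the deposited expression table. They were chosen by name, and each symbol matched 1 identifier. ERN1 (IRE1), EIF2AK3 (PERK) and ATF6 are the sensors of the endoplasmic reticulum (ER), XBP1, ATF4 and DDIT3 (CHOP) are transcription factors, TRIB3 is a pseudokinase, and PPP1R15A (GADD34) is the inducible subunit of the phosphatase that acts on eIF2α. The RNA came from pig (Sus scrofa) blastocysts obtained by parthenogenetic activation, in which an egg develops without sperm. There were 2 libraries of the group labelled vitrification, 3 of vitrification I, 3 of vitrification II and 3 of fresh control, which was not frozen. Vitrification is cooling fast enough to form a glass in place of ice. Liquid helium appears in the title of the series, and no label ties it to any of the 3 vitrified groups or states how their procedures differed. Vitrification replicate 3 was not analysed here. Every group is parthenogenetic, so none carries a paternal genome, and age, culture time after warming and pooling are not given in the labels. The labels name blastocyst as the tissue, while the Smart-Seq2 protocol (amplified cDNA from very small inputs) speaks of sorted single cells. If a library is 1 cell, the spread below is between cells and not between embryos.

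Proteins that are secreted or placed in membranes fold inside the ER, and the 3 sensors respond when unfolded protein builds up there. ERN1 splices the XBP1 transcript, ATF6 is cut to release a transcription factor, and both branches raise ER chaperones and degradation factors. EIF2AK3 phosphorylates eIF2α, which lowers translation in general while favouring translation of ATF4. ATF4 induces DDIT3, TRIB3 and PPP1R15A, and PPP1R15A directs protein phosphatase 1 back to eIF2α, which closes the loop. Other eIF2α kinases feed the same loop without ER stress, which is why it is called integrated. Splicing, cleavage, phosphorylation and translation are not measured by gene-level RNA, so the values below are transcript levels only.

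Levels are the authors' FPKM, a fragment count divided by transcript length and by library size. Summed FPKM ran from 439650 to 591894 and genes above 0 from 11550 to 18527 per library. Sequencing depth is unknown. The share of FPKM on mitochondrial coding genes was 38.8% and 51.8% in vitrification, 43.9 to 64.3% in vitrification I, 16.9 to 22.1% in vitrification II and 37.6 to 43.9% in fresh control. All 11 trophectoderm markers (the outer epithelium of the blastocyst) had values, and their summed FPKM was 7569 and 18720 in vitrification, 3083 to 6456 in vitrification I, 15030 to 23480 in vitrification II and 11240 to 17170 in fresh control. The 6 of 10 epiblast and inner cell mass markers with an identifier summed to 18.8 and 45.2 in vitrification, 3.97 to 15.7 in vitrification I, 54.4 to 108 in vitrification II and 14.7 to 21.4 in fresh control, and 6 of 7 hypoblast markers to 19.2 and 48.7, 16.8 to 26.5, 25.5 to 40.1 and 11.6 to 20.4 in the same order. The 6 cumulus or granulosa markers with an identifier summed to at most 0.361 FPKM in a library, with HAS2 and PTX3 at 0 in all 11 libraries. The 6 leukocyte or erythroid markers summed to 0.728 and 13.2 in vitrification, 0.0211 to 2.90 in vitrification I, 1.64 to 4.91 in vitrification II and 0.786 to 15.6 in fresh control, with PTPRC at 0 throughout. Fresh control replicate 1 stood apart from the other fresh control libraries in ER chaperones, ATF4 and PPP1R15A. For example, HSPA5 (BiP, the main ER chaperone, named after its values were seen) had 121 FPKM there, against 500.2 and 983 in the other fresh controls. Some results that touch this library, but not all, are also given without it.

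Changes below are differences of mean log2(FPKM + 1) between groups, which understate the change of low genes. They come from limma's moderated test across 9411 genes, with Benjamini-Hochberg adjustment over all of them, and a gene counts as called at an adjusted p under 0.05. Against fresh control, all genes had a median of 0.19 for vitrification, -0.06 for vitrification I and 0.62 for vitrification II. Each change is therefore given relative to that median ± SE, while its adjusted p tests the fitted change with the shift included. The comparisons with fresh control share the same 3 control libraries.

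Transcripts of the sensors EIF2AK3 and ATF6 were higher in all 8 vitrified libraries than in all 3 fresh control libraries, and the XBP1 transcript was lower in all 8. PPP1R15A did not follow the split between vitrified and fresh: it was lowest in vitrification I and highest in vitrification II, with the other groups between them. ATF4 and its known targets DDIT3 and TRIB3 were not called in any comparison of the fit reported here. However, ATF4 and TRIB3 were called in some comparisons with array weights or without 1 library. Of the 9411 genes tested, 7.88% lay above fresh control in every vitrified library and 0.999% lay below it in every vitrified library. Such shares were not counted for single pairs of groups, so a lack of overlap between 2 groups below has no background beside it.

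**Figure D1:**
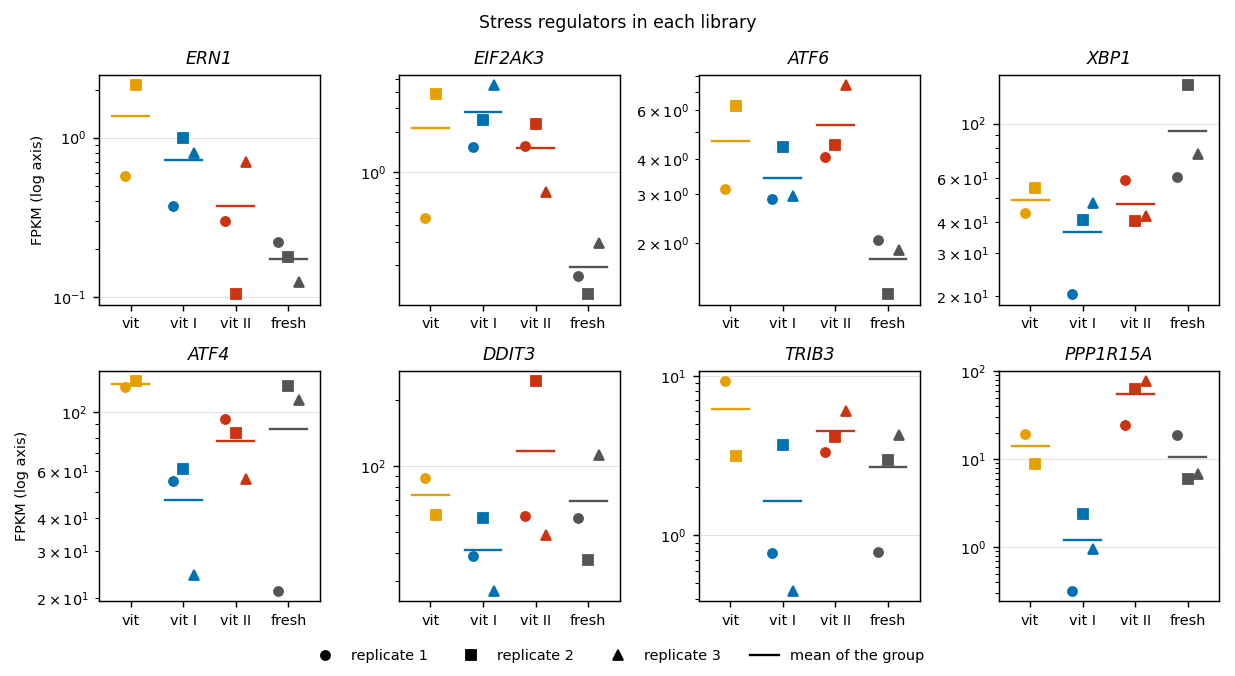
FPKM of the 8 regulators (log axis, 1 panel a gene) in each library of vitrification (vit), vitrification I (vit I), vitrification II (vit II) and fresh control (fresh); marker shapes give the replicate number and horizontal lines the group mean. EIF2AK3 and ATF6 lie above fresh control in every vitrified library and XBP1 lies below it, while PPP1R15A spans 0.324 to 76.3 FPKM with vitrification I at the bottom and vitrification II at the top.

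EIF2AK3 (ENSSSCG00000008208), the eIF2α kinase of the ER membrane, had 0.449 and 3.84 FPKM in vitrification, 1.54, 2.44 and 4.48 in vitrification I and 1.56, 2.28 and 0.7095 in vitrification II. In fresh control it had 0.166, 0.121 and 0.295 FPKM. No vitrified library overlapped fresh control, although vitrification replicate 1 lay close to it, and the vitrified groups overlapped each other. The 6 libraries in which it reached 1 FPKM were all vitrified. It therefore passed the filter of 1 FPKM in 3 libraries only through the groups where it was high. EIF2AK3 rose in vitrification I against fresh control by 1.67 ± 0.44 (limma adjusted p = 0.0193). The 3 vitrified groups as 1, a comparison added after the values were seen, were higher by 1.00 ± 0.36 (limma adjusted p = 0.0364). Vitrification alone stood at 0.96 ± 0.49 (limma adjusted p = 0.218) and vitrification II at 0.41 ± 0.44 (limma adjusted p = 0.0928, and 0.0496 or 0.0469 without vitrification replicate 1 or 2). The change in vitrification II was also called with a pseudocount of 0.1 (0.0437) and with array weights (0.0170). The call in vitrification I was lost without fresh control replicate 2 or 3 (limma adjusted p = 0.0684 and 0.0511), without vitrification I replicate 3 (0.0794) and without the expression filter (0.117). The joint call was lost without any 1 fresh control library (0.0737 to 0.165), without vitrification replicate 2 (0.0808) or vitrification II replicate 2 (0.0546), with quantile normalization (0.0932) and without the filter (0.155).

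ATF6 (ENSSSCG00000006346), the sensor that becomes a transcription factor when cleaved, had 3.13 and 6.21 FPKM in vitrification, 2.89, 4.44 and 2.94 in vitrification I and 4.07, 4.50 and 7.40 in vitrification II. Fresh control had 2.05, 1.31 and 1.89 FPKM. The group means were 2.67, 1.96 and 3.04 times that of fresh control, and no vitrified library overlapped it. RefSeq's Sscrofa11.1 annotation places a pseudogene over ATF6, whose fragments may not be told apart from it. In the test ATF6 was called in vitrification II, at 0.55 ± 0.37 relative to the median of all genes and 1.18 before the median was subtracted (limma adjusted p = 0.0295). Relative to that median it stood at 0.81 ± 0.41 in vitrification and 0.74 ± 0.37 in vitrification I (limma adjusted p = 0.203 and 0.2097). The call in vitrification II was lost with quantile normalization, where the fitted change was 0.30 (limma adjusted p = 0.562), with scaling to the total outside the mitochondrial genome (0.0973) and without the filter (0.0543). It was also lost without fresh control replicate 2 or 3 (0.121 and 0.0786) and without vitrification II replicate 2 or 3 (0.0558 and 0.123). For the vitrified groups together ATF6 stood at 0.69 ± 0.30 (limma adjusted p = 0.0550), and was called without vitrification replicate 1 (0.0305) or vitrification I replicate 3 (0.0495), with the total outside the mitochondrial genome (0.0462) and with array weights (0.0037).

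ERN1 (ENSSSCG00000039909), the kinase and RNase that splices XBP1, had the lowest median of the sensors (0.371 FPKM over the 11 libraries) and did not pass the filter of 1 FPKM in 3 libraries. It had 0.578 and 2.13 FPKM in vitrification, 0.371, 0.993 and 0.799 in vitrification I, 0.302, 0.105 and 0.707 in vitrification II, and 0.222, 0.178 and 0.125 in fresh control. Vitrification and vitrification I lay above fresh control without overlap, and vitrification II overlapped it. How many genes as low as ERN1 split this way was not counted. A fit without the filter, over 24211 genes, gave fitted changes against fresh control of 0.92 ± 0.33 for vitrification, 0.53 ± 0.30 for vitrification I and 0.20 ± 0.30 for vitrification II. None was called (limma adjusted p = 0.199, 0.480 and 0.818). The number of fragments behind levels this low is not known.

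XBP1 (ENSSSCG00000030996), the transcription factor downstream of ERN1, was abundant in every library, above 94.9% of all genes in the table where it was lowest. It had 43.5 and 54.9 FPKM in vitrification, 20.4, 40.8 and 48.0 in vitrification I and 58.9, 40.2 and 42.2 in vitrification II. In fresh control the values were 60.7, 143 and 75.5 FPKM. Every vitrified library was lower than every fresh control library, but the gap was narrow, with 58.9 FPKM at the top of the vitrified libraries and 60.7 FPKM at the bottom of fresh control. XBP1 fell in vitrification I relative to the median of all genes (-1.26 ± 0.41, limma adjusted p = 0.0353). It stood at -1.01 ± 0.46 in vitrification and -1.51 ± 0.41 in vitrification II (limma adjusted p = 0.369 and 0.117), and at -1.28 ± 0.34 for the vitrified groups together (0.0642, and 0.0421 or 0.0416 without fresh control replicate 1 or vitrification I replicate 3). With array weights XBP1 was called in vitrification II (0.0322) and for the vitrified groups together (0.0040). The call in vitrification I was lost without fresh control replicate 2 or 3 (0.170 and 0.0729), without vitrification I replicate 1 (0.157), with quantile normalization (0.0961), with scaling to the total outside the mitochondrial genome (0.161), with the compared groups fitted alone (0.0637) and without the filter (0.118). Gene-level FPKM do not separate spliced from unspliced XBP1. The level of XBP1 over that of ATF6 in the same library was 13.9 and 8.84 in vitrification, 7.09 to 16.3 in vitrification I, 5.71 to 14.5 in vitrification II and 29.6 to 109 in fresh control. With XBP1 lower and ATF6 higher in every vitrified library, this ratio had to split the same way. It restates those splits and adds nothing to them.

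ATF4 (ENSSSCG00000059058), whose translation rises when eIF2α is phosphorylated, had 125 and 131 FPKM in vitrification, 54.9, 61.3 and 24.4 in vitrification I and 94.2, 83.6 and 56.2 in vitrification II. Fresh control had 21.3, 126 and 112 FPKM, so that its replicate 1 was the lowest of all 11 libraries and every vitrified group overlapped the range of the controls. Relative to the median of all genes ATF4 in vitrification stood at 0.73 ± 0.62 against fresh control, in vitrification I at -0.55 ± 0.56 and in vitrification II at -0.44 ± 0.56 (limma adjusted p = 0.476, 0.473 and 0.829). Without fresh control replicate 1 the fitted change of ATF4 in vitrification I was -1.42 and was called (limma adjusted p = 0.0299), as was that between vitrification I and vitrification (-1.53, 0.0414). With array weights ATF4 was called in vitrification I against fresh control (fitted -1.09, limma adjusted p = 0.0492). In the fit of all libraries without weights, ATF4 in vitrification I stood at -1.27 ± 0.62 against vitrification, relative to the median (0.154). Both vitrification libraries exceeded all 3 of vitrification I and all 3 of vitrification II. Neither difference was called in that fit (limma adjusted p = 0.154 and 0.455), and how many genes split this way was not counted.

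DDIT3 (ENSSSCG00000050998), a transcription factor known for its part in cell death after lasting ER stress, had 87.7 and 60.0 FPKM in vitrification, 39.1, 57.9 and 27.2 in vitrification I and 59.4, 242 and 48.4 in vitrification II. Fresh control had 57.9, 37.2 and 112 FPKM. Vitrification II replicate 2 stood far above the other libraries, and all 3 vitrified groups overlapped fresh control. Relative to the median of all genes the changes were 0.03 ± 0.62, -0.58 ± 0.55 and -0.12 ± 0.55 in vitrification, vitrification I and vitrification II, with limma adjusted p = 0.897, 0.443 and 0.516. In RefSeq's Sscrofa11.1 annotation DDIT3 overlaps MARS1 (listed there as MARS), a methionyl-tRNA synthetase, and whether the authors' counting used strand is not given in the sources used here. MARS1 had 13.8 and 16.6 FPKM in vitrification, 12.7, 16.6 and 12.9 in vitrification I, 47.1, 32.1 and 31.8 in vitrification II and 24.1, 30.2 and 33.1 in fresh control. Both genes had their highest library in vitrification II, DDIT3 in replicate 2 and MARS1 in replicate 1. Fragments of both genes may not be told apart, and the part of MARS1 in the DDIT3 levels was not tested.

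TRIB3 (ENSSSCG00000039862), a pseudokinase induced by ATF4 and DDIT3, had 9.22 and 3.14 FPKM in vitrification, 0.769, 3.70 and 0.4505 in vitrification I and 3.31, 4.11 and 6.05 in vitrification II. Fresh control had 0.787, 2.97 and 4.25 FPKM. The groups overlapped in every pair. Relative to the median of all genes TRIB3 in vitrification stood at 0.77 ± 0.58 against fresh control, in vitrification I at -0.48 ± 0.52 and in vitrification II at 0.07 ± 0.52 (limma adjusted p = 0.415, 0.5003 and 0.340). The difference closest to the threshold was between vitrification II and vitrification I, at 0.55 ± 0.52 relative to the median (limma adjusted p = 0.0741), and it was called without vitrification I replicate 2 (0.0156) and with array weights (0.0403). Without vitrification I replicate 2, TRIB3 was also called between vitrification I and vitrification (fitted -2.02, limma adjusted p = 0.0402). With array weights it was called in vitrification I against fresh control (fitted -1.13, limma adjusted p = 0.0440).

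PPP1R15A (ENSSSCG00000003155), which ends eIF2α phosphorylation, had 19.1 and 8.76 FPKM in vitrification, 0.324, 2.40 and 0.951 in vitrification I and 24.2, 62.9 and 76.3 in vitrification II. Fresh control had 18.9, 5.90 and 6.84 FPKM. Vitrification I lay wholly below every other group and vitrification II wholly above, while vitrification and fresh control overlapped. PPP1R15A was the most variable of the 8 genes, with its highest library at 236 times its lowest.

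PPP1R15A averaged 54.5 ± 27.0 FPKM in vitrification II and 1.23 ± 1.06 FPKM in vitrification I (SD, n = 3 each), 44.5 times as much. On the log2(FPKM + 1) scale the difference was 4.60 as fitted and 3.92 ± 0.53 after subtracting the median of 0.68 over all genes (limma adjusted p = 4.35e-05). Its size exceeded that of 99.9% of the genes tested. The call held in each of the 11 fits that left out 1 library (fitted 4.28 to 5.09, limma adjusted p up to 0.00042) and in all 7 other settings (3.82 to 5.56, up to 0.0032), scaling to the total outside the mitochondrial genome included. Against fresh control, PPP1R15A fell in vitrification I by 2.25 ± 0.53 (limma adjusted p = 0.00923) and rose in vitrification II by 1.66 ± 0.53 (limma adjusted p = 0.00776), both relative to the median of all genes. Both calls held whichever library was left out, fresh control replicate 1 included. The fall was lost without the filter (0.0756), and the rise was lost without the filter (0.0622) and with quantile normalization (0.0882).

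Between vitrified groups, PPP1R15A also fell in vitrification I against vitrification (-2.51 ± 0.60 relative to the median, limma adjusted p = 0.0195). This call was lost without vitrification replicate 1 or 2 (0.151 and 0.0562), without vitrification I replicate 1 (0.0698) and without the filter (0.0589). Vitrification II stood 1.37 ± 0.60 above vitrification, with no overlap of libraries and an adjusted p of 0.0747 in limma. It was 0.0369 with these groups fitted alone and 0.0492 without fresh control replicate 1. In vitrification PPP1R15A differed from fresh control by 0.26 ± 0.60 (limma adjusted p = 0.740). Vitrification II, which had the most PPP1R15A, also had the smallest mitochondrial shares (16.9 to 22.1% of FPKM), and vitrification I had the lowest trophectoderm sums (3083 to 6456 FPKM) and the fewest genes above 0 (11550 to 14039). Epiblast marker sums were 54.4 to 108 FPKM in vitrification II and 3.97 to 15.7 in vitrification I. The part of these in the PPP1R15A levels was not tested. In bulk samples, fewer cells of a type and less RNA per cell cannot be told apart.

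Set within each library, PPP1R15A was 0.154 and 0.067 of the ATF4 level in vitrification, 0.0059 to 0.0391 in vitrification I, 0.257 to 1.36 in vitrification II and 0.0469 to 0.888 in fresh control. The upper end in fresh control was its replicate 1, and without that library the fresh controls lay at 0.0469 and 0.0614. All 3 vitrification II libraries thus had a higher ratio than both vitrification and all 3 vitrification I libraries. Against vitrification the ratio had to be higher, as PPP1R15A was higher and ATF4 lower there without overlap. Against vitrification I, ATF4 overlapped and PPP1R15A did not, so the ratio chiefly restates the split of PPP1R15A.

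**Figure D2:**
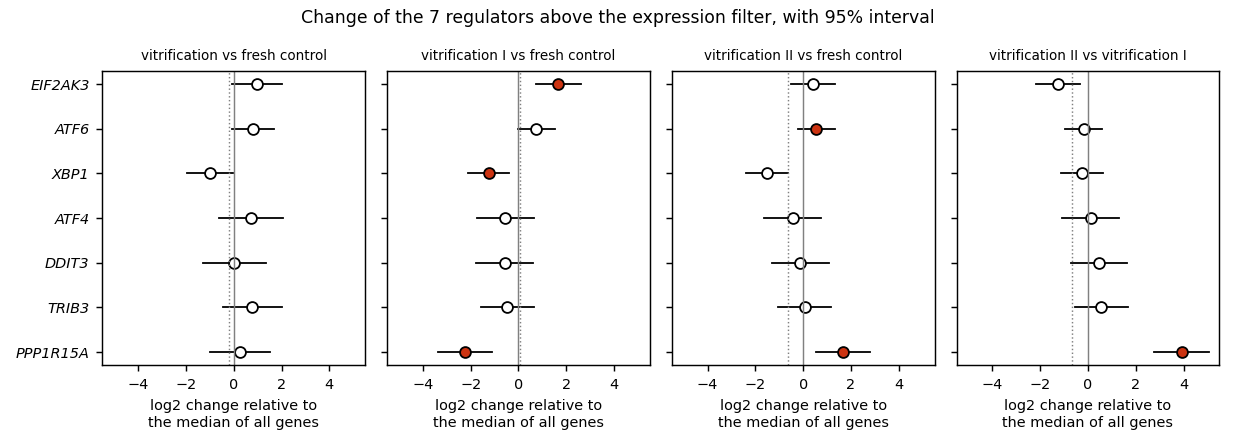
Change of the 7 regulators above the filter in 4 comparisons, as the difference in mean log2(FPKM + 1) relative to the median of all genes (x axis) with its 95% interval; filled points were called at a limma adjusted p under 0.05, the solid line is the median of all genes and the dotted line is a fitted change of 0. PPP1R15A lies at -2.25 in vitrification I and 1.66 in vitrification II against fresh control, and at 3.92 between vitrification II and vitrification I, where it was the only one called.

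Counted over the 7 members that passed the filter, 0 were called in vitrification against fresh control, where 1.37% of all genes were called (1.25% higher and 0.117% lower). Before adjustment 2 of them, EIF2AK3 and ATF6, were under 0.05 there in limma. In vitrification I against fresh control 3 of 7 were called, 1 higher and 2 lower, beside 18.6% of all genes (8.85% higher and 9.77% lower). Against fresh control, vitrification II had 2 of 7 called, both higher, beside 25.7% of all genes (24.6% higher and 1.09% lower), so this share lies near the background. In vitrification I against vitrification 1 of 7 was called, lower, beside 5.63% (1.21% higher and 4.42% lower). Between vitrification II and vitrification 0 were called, beside 5.98% (5.05% higher and 0.935% lower), and 1, PPP1R15A, was under 0.05 before adjustment in limma. Between vitrification II and vitrification I 1 of 7 was called, higher, beside 38.4% (34.7% higher and 3.75% lower). For the 3 vitrified groups together 1 was called, higher, beside 11.7% (10.3% higher and 1.39% lower). An F test of any difference among the 4 groups called 2 of the 7, beside 42.7% of all genes. These were PPP1R15A (limma adjusted p = 0.00032) and EIF2AK3 (0.0394), which was lost without any 1 fresh control library, vitrification I replicate 2 or 3 or vitrification II replicate 1 (0.0550 to 0.117) and without the filter (0.172). The F test also called XBP1 and ATF4 without fresh control replicate 1, ATF6 without vitrification replicate 1 and TRIB3 without vitrification I replicate 2.

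The 4 sets of genes around these regulators were described from lists of textbook members, chosen with earlier results of these data known. The shares called in them are therefore descriptions and not independent tests. The first held factors that act beside the sensors, such as ATF6B, the ligase RTCB that joins spliced XBP1, and WFS1. Of 16 listed, 14 had an identifier and 10 passed the filter. None was called in vitrification, vitrification I or vitrification II against fresh control, and the median of the 10 stood at 0.07, -0.34 and -0.67 relative to that of all genes. In vitrification II against vitrification I 3 rose and 0 fell: ATF6B by 1.14 ± 0.35, RTCB by 0.98 ± 0.36 and BLOC1S1, whose transcript ERN1 is known to cut, by 0.56 ± 0.35 (limma adjusted p = 0.00127, 0.0027 and 0.0127). These 3 of 10 stand beside 34.7% of all genes called higher, so the share is near the background. RTCB and BLOC1S1 were not called with scaling to the total outside the mitochondrial genome, nor BLOC1S1 with quantile normalization. Against vitrification, vitrification II had 1 rise, BLOC1S1 (1.31 ± 0.40), and 1 fall, WFS1 (-2.02 ± 0.37), with limma adjusted p = 0.0249 and 0.0314, and both calls were lost without any 1 of 5 libraries of these groups.

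The second set held the eIF2α kinases, eIF2 and eIF2B subunits and the partners of the phosphatase, of which 17 of 19 had an identifier and all 17 passed. None of the 17 was called in vitrification against fresh control. In vitrification I 2 rose: DNAJC3 (P58IPK, an inhibitor of eIF2α kinases) by 1.75 ± 0.51 and PPP1R15B by 1.49 ± 0.41 (limma adjusted p = 0.0337 and 0.0274). These 2 of 17 stand beside 8.85% of all genes. Neither held without fresh control replicate 1, without vitrification I replicate 1 or 3, or without the filter. In vitrification II 4 rose, among them PPP1R15B by 1.05 ± 0.41, PPP1CB by 0.92 ± 0.39 and PPP1CC by 0.87 ± 0.45 (limma adjusted p = 0.0103, 0.0111 and 0.0269). These 4 of 17 stand beside 24.6% of all genes called higher, again near the background. With quantile normalization 0 of the 17 rose there, and without fresh control replicate 2 only 1. The median of the set stood at -0.02, 0.10 and 0.05 relative to that of all genes in vitrification, vitrification I and vitrification II.

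PPP1R15B, the constitutive counterpart of PPP1R15A, had a different pattern from it. It had 2.82 and 7.12 FPKM in vitrification, 6.11, 4.36 and 5.28 in vitrification I and 10.4, 4.89 and 5.02 in vitrification II, against 0.862, 0.972 and 2.38 FPKM in fresh control. Every vitrified library lay above every fresh control library. In fresh control only replicate 3 reached 1 FPKM, so PPP1R15B, like EIF2AK3, passed the filter only through groups where it was high. For the vitrified groups together the change was 1.19 ± 0.35 (limma adjusted p = 0.0159), which was lost without fresh control replicate 2, without the filter and with quantile normalization (up to 0.116). Between vitrification II and vitrification I it differed by -0.43 ± 0.41 relative to the median of all genes (limma adjusted p = 0.652), where PPP1R15A differed by 3.92. PPP1CA, one of the catalytic subunits, had 41.4, 54.2 and 36.7 FPKM in vitrification II, against 10.8, 25.8 and 9.70 FPKM in vitrification I, a rise of 0.89 ± 0.40 (limma adjusted p = 0.00705) that was lost with quantile normalization and with scaling to the total outside the mitochondrial genome.

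**Figure D3:**
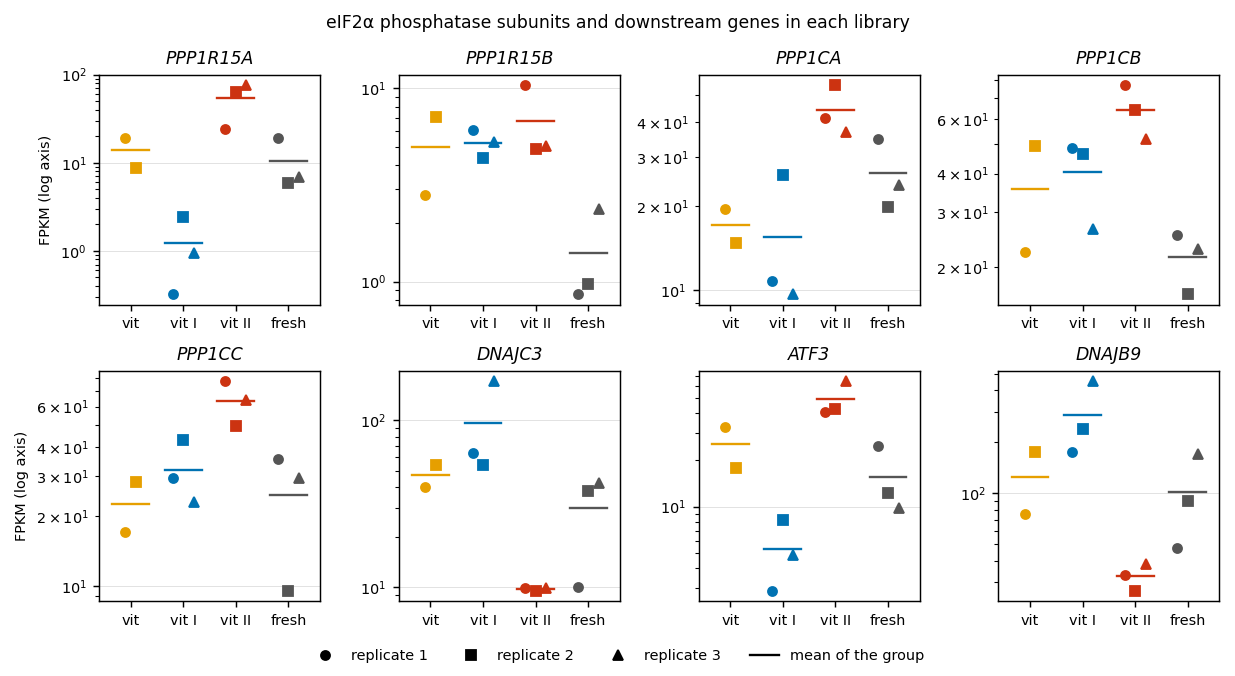
FPKM (log axis, 1 panel a gene) of PPP1R15A, its counterpart PPP1R15B, the phosphatase catalytic subunits PPP1CA, PPP1CB and PPP1CC, the kinase inhibitor DNAJC3, the ATF4 target ATF3 and the ER chaperone partner DNAJB9 in each library of vitrification (vit), vitrification I (vit I), vitrification II (vit II) and fresh control (fresh); shapes give the replicate number and lines the group mean. ATF3 is ordered like PPP1R15A, with 40.8 to 64.4 FPKM in vitrification II and 2.87 to 8.17 in vitrification I, while DNAJC3 and DNAJB9 are ordered the other way between these groups.

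Between vitrification II and vitrification I, the second set had 3 rises, EIF2B2 (1.07 ± 0.42), PPP1CA and EIF2AK1 (HRI, the haem-regulated kinase, 0.49 ± 0.35), and 1 fall, DNAJC3 (-3.66 ± 0.51, limma adjusted p = 0.00057). The 3 of 17 that rose stand beside 34.7% of all genes, a larger share, and the 1 that fell beside 3.75%. With quantile normalization 0 rose and 3 fell. EIF2AK1 was also not called with scaling to the total outside the mitochondrial genome or without vitrification II replicate 2. DNAJC3 had 9.89, 9.56 and 9.94 FPKM in vitrification II, against 63.7, 54.1 and 171 FPKM in vitrification I, and its call held in all 18 other fits. Against vitrification, where DNAJC3 had 39.9 and 54.0 FPKM, vitrification II stood at -2.60 ± 0.58 (limma adjusted p = 0.0435), which was lost without any 1 library of these groups.

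The third set held 32 targets of ATF4 and DDIT3, chiefly genes of amino acid synthesis, transport and tRNA charging, and 30 passed the filter. In vitrification against fresh control 1 rose and 0 fell. This was ATF5, a related transcription factor, at 1.21 ± 0.30 (limma adjusted p = 0.0408), whose call was lost in 6 of the 11 fits without 1 library. ATF5 reached 1 FPKM in vitrified libraries alone, so it too passed the filter only through groups where it was high. In vitrification I 1 rose and 4 fell, beside 8.85% of all genes called higher and 9.77% lower. The rise was ERO1A, an ER oxidase that reoxidises protein disulfide isomerase (2.09 ± 0.48, limma adjusted p = 0.00994). The falls included EIF4EBP1, a repressor of cap-dependent translation (-2.21 ± 0.50, 0.00715), DDIT4, an inhibitor of mTORC1 (-2.15 ± 0.68, 0.0347), and SHMT2, a mitochondrial serine enzyme (-1.98 ± 0.60, 0.0282). The number that fell was 7 without fresh control replicate 1, 8 without vitrification I replicate 2, 1 without fresh control replicate 2 or without vitrification I replicate 1 or 3, 2 without fresh control replicate 3, and 0 without the filter.

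Of the 30, 6 rose and 0 fell in vitrification II against fresh control, where 24.6% of all genes were called higher, so this share lies near the background. Among them were SESN2, a stress-induced regulator of mTORC1 (1.08 ± 0.48, limma adjusted p = 0.019), ATF3, a transcription factor (1.06 ± 0.43, 0.0127), and CEBPG, a dimer partner of ATF4 (0.91 ± 0.35, 0.00669). The number that rose was 0 with quantile normalization, 3 with scaling to the total outside the mitochondrial genome, and 2 or 3 without fresh control replicate 2 or 3 or any 1 vitrification II library. SESN2 was also not called without fresh control replicate 1. Set against vitrification I, vitrification II had 8 genes that rose and 0 that fell, led by ATF3 (2.37 ± 0.43), SHMT2 (2.09 ± 0.60) and EIF4EBP1 (1.33 ± 0.50), with limma adjusted p = 0.00016, 0.00257 and 0.00604. Of all genes, 34.7% were called higher there, a larger share than 8 of 30. The number that rose was 4 with quantile normalization, with scaling to the total outside the mitochondrial genome, without the filter, and without vitrification I replicate 3 or vitrification II replicate 1. In vitrification I against vitrification 3 of 30 fell, where 4.42% of all genes were called lower: ATF3 (-1.82 ± 0.49), the amino acid transporter SLC7A5 (-1.69 ± 0.53) and ATF5 (-1.14 ± 0.30), and each call was lost without either vitrification library or without vitrification I replicate 1 or 3, while 11 fell without vitrification I replicate 2 and 5 without fresh control replicate 1. None of the 30 was called in vitrification II against vitrification. Relative to all genes the median of the 30 stood at 0.22, -0.05 and -0.38 in vitrification, vitrification I and vitrification II against fresh control and at -0.08 in vitrification II against vitrification I.

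ATF3 was ordered across the groups as PPP1R15A was. It had 32.7 and 17.7 FPKM in vitrification, 2.87, 8.17 and 4.91 in vitrification I, 40.8, 42.9 and 64.4 in vitrification II and 24.5, 12.2 and 9.77 in fresh control. Vitrification II lay above and vitrification I below every library of the other groups, and the call between these 2 groups held in all 18 other fits.

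The fourth set held 26 ER genes known to be induced by ATF6 and XBP1, among them chaperones, protein disulfide isomerases, degradation factors and parts of the translocon, and all 26 passed. In vitrification against fresh control 3 rose and 0 fell: EDEM1, a degradation factor for misfolded glycoproteins (2.57 ± 0.47), SEC24D of the COPII coat (2.56 ± 0.51) and the chaperone HYOU1 (2.45 ± 0.54), with limma adjusted p = 0.0174, 0.0215 and 0.0296. They are 3 of 26, where 1.25% of all genes were called higher. None of the 3 held without fresh control replicate 2 or vitrification replicate 2, or with these groups fitted alone. HYOU1 was also not called without fresh control replicate 1. In vitrification I 9 rose and 0 fell, led by SRPRB, a subunit of the signal recognition particle receptor (4.20 ± 0.40), the lectin chaperone CALR (3.41 ± 0.46) and EDEM1 (2.37 ± 0.42), with limma adjusted p = 3.71e-05, 0.00047 and 0.00239. These 3 calls held in all 18 other fits. The 9 of 26 stand beside 8.85% of all genes called higher. The number that rose was 5 without vitrification I replicate 3, 4 without the filter, 15 with quantile normalization and 16 with scaling to the total outside the mitochondrial genome.

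Against fresh control, 2 of the 26 rose in vitrification II, SRPRB (0.94 ± 0.40) and the translocon subunit SEC61A1 (0.78 ± 0.43), and 5 fell, led by SDF2L1 (-3.28 ± 0.62), CRELD2 (-2.61 ± 0.67) and the disulfide isomerase PDIA3 (-2.32 ± 0.48). Of all genes, 24.6% were called higher there and 1.09% lower. SRPRB was not called with quantile normalization, and SEC61A1 was not called with quantile normalization, with scaling to the total outside the mitochondrial genome, without the filter, or without fresh control replicate 1 or vitrification II replicate 1 or 3. The number that fell rests on the fresh controls: it was 13 without replicate 1, which was low in these genes, and 1 without replicate 2 or 3. It was 2 without vitrification II replicate 1 or 3, 3 without its replicate 2, 0 without the filter and 15 with array weights. SDF2L1 had 16.1, 21.9 and 14.1 FPKM in vitrification II, against 26.0, 209 and 261 FPKM in fresh control.

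The ER genes differed most between vitrification II and vitrification I, where 16 of 26 fell and 0 rose, beside 3.75% of all genes called lower and 34.7% higher, and their median stood at -2.50 relative to that of all genes. The number that fell stayed within 1.5 times of 16 under every alternative. DERL3, a channel component of ER-associated degradation, had 0.309, 1.34 and 1.504 FPKM in vitrification II, against 25.9, 15.7 and 22.4 FPKM in vitrification I (-4.16 ± 0.50, limma adjusted p = 0.00018). DNAJB9, a cochaperone of HSPA5, had 33.1, 26.9 and 38.6 FPKM in vitrification II, against 173, 236 and 450.5 FPKM in vitrification I (-3.67 ± 0.48, limma adjusted p = 0.00039). XBP1 and ATF6, whose products are known to induce these genes, differed between the same groups by -0.26 ± 0.41 and -0.19 ± 0.37 relative to the median (limma adjusted p = 0.424 and 0.297), and their fitted changes turned from positive to negative with quantile normalization and with scaling to the total outside the mitochondrial genome. Against vitrification, 10 of the 26 fell in vitrification II, led by SDF2L1 (-3.95 ± 0.69), CRELD2 (-3.44 ± 0.75) and the chaperone HSP90B1 (-3.23 ± 0.65), where 0.935% of all genes were called lower, but 0 or 1 fell without any 1 library of these groups. In vitrification I against vitrification 2 rose, SRPRB (2.54 ± 0.44) and CALR (2.42 ± 0.51), with neither called without vitrification replicate 1 or vitrification I replicate 1, and 1 fell, the ligase SYVN1 (-1.46 ± 0.46, limma adjusted p = 0.0426), which was not called in 9 of the 11 fits without 1 library.

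For the 3 vitrified groups together against fresh control, 3 of the 30 ATF4 and DDIT3 targets rose and 7 of the 26 ER genes rose, where 10.3% of all genes were called higher, with set medians of -0.04 and 0.08 relative to all genes. These numbers were 0 and 4 without fresh control replicate 2, without vitrification replicate 2 and with quantile normalization. Without the filter, only EDEM1 and SRPRB of these 7 ER genes kept the call, and only CEBPG of these 3 targets.

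**Figure D4:**
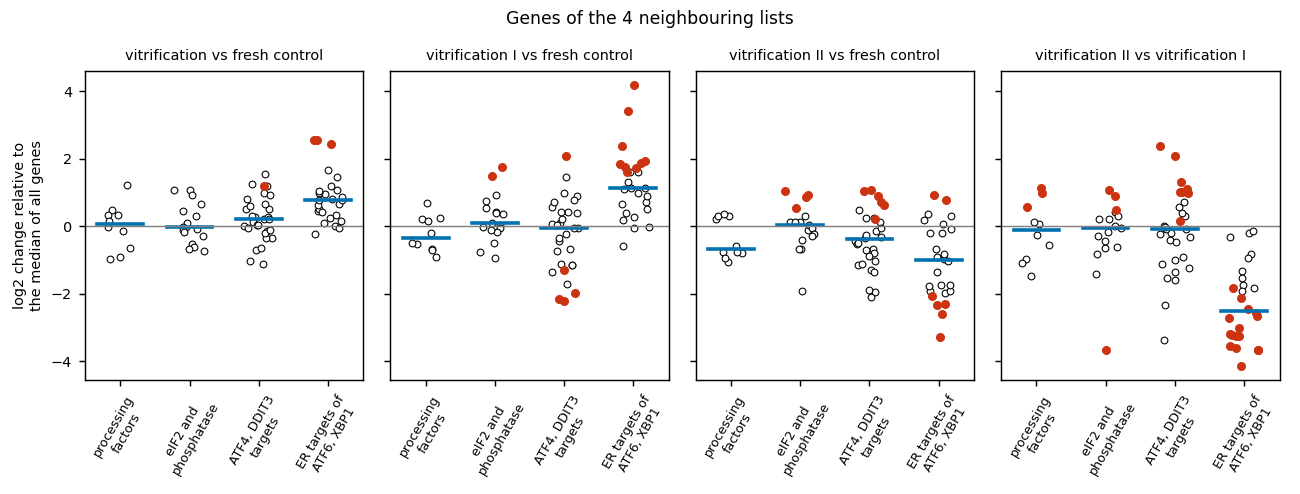
Change of each gene of the 4 surrounding sets in 4 comparisons, as the difference in mean log2(FPKM + 1) relative to the median of all genes (y axis); filled points were called at a limma adjusted p under 0.05 and bars are set medians. The ER targets of ATF6 and XBP1 have a median of 1.13 in vitrification I and -0.998 in vitrification II against fresh control and of -2.50 in vitrification II against vitrification I, while the medians of the other sets stay between -0.67 and 0.22 in these comparisons.

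As a description of likeness, the 7 members above the filter were set beside every other gene with a symbol by the root mean square difference of centred log2(FPKM + 1) over the 11 libraries. EIF2AK3 was most like TMED8 (0.272) and TGFBR1 (0.288), ATF6 most like LIMD1 (0.155) and NFATC3 (0.174), and XBP1 most like SLC45A2 (0.255) and SMPD2 (0.346). ATF4 was most like GATA2 (0.420) and EPOR (0.464), DDIT3 most like FARS2 (0.465) and ZBTB48 (0.485), and TRIB3 most like RENBP (0.392) and GMPPA (0.413). PPP1R15A was most like BID (0.476) and TNFRSF12A (0.575), where the median gene differed from it by 1.66. Among the members themselves the closest pairs were ATF4 with TRIB3 (0.624) and EIF2AK3 with ATF6 (0.659). The median gene differed from ATF4 by 1.03, from TRIB3 by 0.943, from EIF2AK3 by 0.977 and from ATF6 by 0.681. Seen from ATF6, EIF2AK3 was thus about as far as the median gene. PPP1R15A was at least 1.47 from each of the other 6, not far from the 1.66 of its median gene.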

How the data were processed

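Smart-Seq2 libraries of porcine parthenogenetic blastocysts were sequenced as paired ends on an Illumina NovaSeq, per the labels' protocols. The deposited table holds FPKM made by the authors for 31781 genes in 11 of the 12 samples; per the submitters' processing notes FastQC, TopHat2 2.0.13, Cufflinks 2.2.1 and DESeq2 were used, with no roles given, and the genome build is not given in the sources used here. No fragment counts could be recovered from the low values, so depth is unknown and the precision rests on replicate spread; 0 pairs of libraries were identical and 0 other columns of per-sample values were set aside. No source says that the replicates are separate embryos or cultures, and p-values therefore rest on a spread that may be technical. The labels give no batch or date.

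Genes with at least 1 FPKM in at least 3 libraries were kept (9411, of which 8158 had a symbol). One mean per group was fitted to log2(FPKM + 1) of all 11 libraries with limma 3.58.1 (trend) in R 4.3.3, with moderated two-sided tests of 6 pairs of groups and Benjamini-Hochberg adjustment over the genes kept. The code was tested on simulated data. The comparison of the 3 vitrified groups together with fresh control was added after the values were seen. The design expected 3 vitrification libraries where 2 were fitted.

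The 8 members and the 4 surrounding lists were chosen with earlier results of these data known. Named from the lists were up to 3 called genes per comparison and direction with the largest change, and per member the 2 genes most like it. HSPA5, MARS1, PPP1R15B and the catalytic subunits are named outside that rule where they did not meet it. List members with no identifier were MBTPS2, TRAF2, EIF2S3 and EIF2B1, and DNAJC3 stands in both the second and the fourth list. Alternatives were a pseudocount of 0.1, no filter, quantile normalization, scaling to the total outside the mitochondrial genome (13 coding genes), array weights, a replicate block, the compared groups alone, and leaving out each library. Where 1 vitrification library was left out, the other was assumed to vary like the rest.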

Additional observations from a re-analysis of the deposited data

How the results depend on the processing

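With 2 or 3 libraries a group and unknown depth, counts of calls moved widely with single libraries and with scaling, and the cause of each move was not tested. The number of genes called in vitrification against fresh control was 129, and was 68 with a pseudocount of 0.1, 656 without the filter, 677 with array weights, 3 with the compared groups alone and 0 to 207 with 1 library left out. In vitrification I against fresh control it was 1752, and was 906 without the filter, 3337 with array weights and 832 to 2029 with 1 library left out. Against fresh control, vitrification II had 2422 genes called, and the number was 1419 without the filter, 676 with quantile normalization, 1312 with the total outside the mitochondrial genome, 4954 with array weights and 1017 to 2715 with 1 library left out. For vitrification I against vitrification it was 530, and was 921 without the filter and 5 to 822 with 1 library left out. For vitrification II against vitrification it was 563, and was 48 with a pseudocount of 0.1, 944 without the filter, 330 with quantile normalization, 99 with the total outside the mitochondrial genome, 1125 with the compared groups alone and 10 to 928 with 1 library left out. For vitrification II against vitrification I it was 3614, and was 2257 with the total outside the mitochondrial genome and 2673 to 3865 with 1 library left out. For the 3 vitrified groups together it was 1102, and was 616 without the filter, 643 with quantile normalization, 4213 with array weights and 205 to 1503 with 1 library left out. The F test called 4016 genes, and 6154 with array weights and 2981 to 4288 with 1 library left out. The replicate numbers were not used as pairs in the main fit. After each gene's group mean was subtracted, the 15 same-numbered pairs of libraries correlated at -0.158 to 0.143, with 2 over 0.1. With 2 or 3 libraries a group, these values cannot decide whether the numbers pair the libraries. A replicate block gave 55 calls in vitrification against fresh control and 296 in vitrification I against vitrification.

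Of the 7 members tested, 3 were called in vitrification I against fresh control, 0 without the filter, 5 with array weights and 1 to 4 with 1 library left out. Against fresh control, vitrification II had 2 called, 0 without the filter or with quantile normalization, 1 with the total outside the mitochondrial genome, 4 with array weights and 1 to 3 with 1 library left out. For vitrification I against vitrification it was 1, 0 without the filter and 0 to 2 with 1 library left out; for vitrification II against vitrification it was 0, 1 with the compared groups alone and 0 to 1 with 1 library left out. For vitrification II against vitrification I it was 1, 2 with array weights and 1 to 2 with 1 library left out. For the vitrified groups together it was 1, 0 without the filter or with quantile normalization, 2 with the total outside the mitochondrial genome, 3 with array weights and 0 to 3 with 1 library left out. The F test called 2, 1 without the filter, 4 with array weights and 1 to 3 with 1 library left out.

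The share of calls that were higher was 91.5% in vitrification against fresh control and 70.4% with quantile normalization. In vitrification I against fresh control it was 47.5%, and 72.8% with the total outside the mitochondrial genome. With vitrification II against fresh control it was 95.7%, and 57.2% with quantile normalization. It was 21.5% for vitrification I against vitrification, 84.4% for vitrification II against vitrification, 90.2% for vitrification II against vitrification I and 88.1% for the vitrified groups together. With quantile normalization these were 48.3%, 37.9%, 48.2% and 60.8%, and the first 3 were 34.2%, 42.4% and 68.9% with the total outside the mitochondrial genome.

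No called change of a member reversed. Among changes that were not called, the fitted log2 value reversed for DDIT3 in vitrification against fresh control (-0.28 with array weights), and in vitrification II against fresh control for ATF4 (-0.12 with quantile normalization and -0.47 with array weights) and TRIB3 (-0.16 with quantile normalization). For vitrification II against vitrification it reversed for EIF2AK3 (0.0014 with a pseudocount of 0.1), and with quantile normalization and the total outside the mitochondrial genome for ATF6 (-0.34 and -0.17) and DDIT3 (-0.32 and -0.11). For vitrification II against vitrification I it reversed in these same settings for ATF6 (-0.29 and -0.0145) and XBP1 (-0.27 and -0.20). For the vitrified groups together it reversed for PPP1R15A (-0.086 with a pseudocount of 0.1 and -0.14 with quantile normalization), TRIB3 (-0.053 with quantile normalization and -0.16 with array weights), ATF4 (-0.43 with array weights) and DDIT3 (-0.44 with array weights and -0.0073 with the replicate block). With 1 library left out, the ranges that crossed 0 were, in vitrification against fresh control, -0.15 to 0.63 for DDIT3 and -0.071 to 0.97 for PPP1R15A. Against fresh control in vitrification II they were -0.63 to 0.62 for ATF4 and -0.22 to 0.93 for DDIT3. For vitrification I against vitrification they were -0.41 to 1.33 for EIF2AK3 and -0.72 to 0.081 for ATF6. Between vitrification II and vitrification they were -0.99 to 0.75 for EIF2AK3, -0.23 to 0.58 for ATF6, -0.24 to 0.093 for XBP1, -0.43 to 0.72 for DDIT3 and -0.93 to 0.38 for TRIB3. For the vitrified groups together they were -0.65 to 0.61 for ATF4, -0.34 to 0.44 for DDIT3, -0.082 to 0.70 for TRIB3 and -0.14 to 0.62 for PPP1R15A.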
